A study of Homo sapiens with 12 samples.

Results

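The 10 genes described here encode enzymes that make serine, asparagine and proline and that run the mitochondrial arm of folate metabolism. They are ASNS, PHGDH, PSAT1, PSPH, SHMT2, MTHFD2, MTHFD1L, ALDH1L2, ALDH18A1 and PYCR1. They were taken by name from the 19923 protein-coding genes counted in each library, and all 10 were found and passed the filter on low counts in both lines. RNA came from SK-N-BE2 and NGP, human neuroblastoma lines labelled wild type and MYCN-amplified. Both were kept for 6 days in RPMI medium with serum and glutamine, either with the solvent DMSO or with STM2457, an inhibitor of the mRNA methyltransferase METTL3. The dose was 12 µM in SK-N-BE2 and 1 µM in NGP, and the 4 groups of 3 replicates gave 12 libraries. The labels do not say whether replicates were separate cultures, so p-values measure the spread between these libraries, which may be technical. The lines differ in dose and in the sequencing run named in their files, so effects of the line, of the dose and of the run cannot be told apart.

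Serine is made from the glycolytic intermediate 3-phosphoglycerate in a short chain of reactions carried out in order by PHGDH, PSAT1 and PSPH. In mitochondria SHMT2 splits serine into glycine and a one-carbon unit carried on folate, and MTHFD2 and MTHFD1L turn that unit into formate, which leaves for purine and thymidylate synthesis in the cytosol. ALDH1L2 instead oxidises the mitochondrial one-carbon unit to carbon dioxide. ALDH18A1 and PYCR1 act at the start and at the end of proline synthesis from glutamate, and ASNS makes asparagine from aspartate and glutamine. Many genes of this group are known targets of the transcription factor ATF4, which acts when amino acids are short or when translation initiation is restrained, and MYC proteins are known to raise several of them.

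The promoters are shown because most of these genes moved together under the inhibitor. RefSeq sequences on GRCh38.p14, from 250 bases before to 50 bases after each annotated start, were at hand for 6 of the 10 genes: ASNS, PHGDH, PSAT1, MTHFD2, MTHFD1L and ALDH18A1. On both strands, 2 motifs that do not overlap in letters were sought: TGATGNAA, the composite element bound by ATF4 with a C/EBP partner, and CACGTG, the E-box bound by MYC proteins. The first occurred in 3.62% and the second in 7.26% of all 35116 RefSeq promoter windows of this length. The 6 genes have 10 such windows, and a gene was counted if any of its windows held a match. The shares are per window, so they cannot be set directly against counts of genes. Of the 6 genes, ASNS and MTHFD1L held TGATGNAA, and MTHFD1L and ALDH18A1 held CACGTG. The matches, in capitals, are given 5′ to 3′ on the strand of the gene.
ASNS, chr7:97872458-97872487, minus strand: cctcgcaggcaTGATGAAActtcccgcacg
MTHFD1L, chr6:150866346-150866375, plus strand: gccgccggctcTGATGCAAtcgcgccgggc
MTHFD1L, chr6:150866321-150866348, plus strand: acgcccggctcCACGTGcgcagccggcc
ALDH18A1, chr10:95656831-95656858, minus strand: ggctggcccgcCACGTGgagcgctggct
The ASNS match began 68 bases before the nearer RefSeq start of the gene and lay outside the window of its other RefSeq start. It falls inside the gene range given below, which comes from the deposited files. MTHFD1L has several annotated starts. Its TGATGNAA match lay 129 or 90 bases before, or 25 bases after, the start, depending on which of the nearby ones is taken. The window of a further, distant start of MTHFD1L held neither motif. The ALDH18A1 E-box began 136 bases before the start. For comparison, the 250 bases before the start of PSAT1, which fell in both lines, are printed with those of ALDH18A1, which passed the test in neither. The PSAT1 stretch holds neither motif, and the ALDH18A1 stretch holds the E-box in capitals.
PSAT1, chr9:78296875-78297124, plus strand: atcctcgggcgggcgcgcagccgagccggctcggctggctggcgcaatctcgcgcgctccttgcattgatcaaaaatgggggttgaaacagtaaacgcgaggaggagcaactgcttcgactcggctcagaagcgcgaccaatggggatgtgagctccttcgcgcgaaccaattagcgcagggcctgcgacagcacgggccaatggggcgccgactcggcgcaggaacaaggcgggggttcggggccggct
ALDH18A1, chr10:95656712-95656961, minus strand: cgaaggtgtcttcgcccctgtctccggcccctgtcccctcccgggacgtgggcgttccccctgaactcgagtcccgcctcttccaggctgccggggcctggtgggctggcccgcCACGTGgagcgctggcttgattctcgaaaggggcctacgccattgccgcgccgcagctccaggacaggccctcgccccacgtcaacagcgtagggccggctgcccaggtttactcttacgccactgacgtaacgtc
A match is a run of letters and was not tested as a binding site.

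The libraries held 47242379 to 58159937 counted reads, and counting error is therefore small for the 10 genes. The transcript of METTL3, whose protein the compound inhibits, rose with STM2457 in both lines. It went from 54.0 ± 3.3 to 79.5 ± 1.4 CPM in SK-N-BE2 (counts scaled to a common library total; mean ± SD, n = 3; log2 fold change 0.52, edgeR adjusted p = 0.000106) and from 40.4 ± 3.6 to 77.7 ± 2.5 CPM in NGP (0.92, 0.000300). In each group 9 of 10 adrenergic neuroblastoma markers reached 1 CPM, and TH was below it in NGP. The 6 leukocyte markers summed to at most 8.60 CPM and the 5 epithelial markers to at most 12.4 CPM in any library. The 6 fibroblast or mesenchymal markers summed to 69.8 to 79.3 CPM in SK-N-BE2 with DMSO and to 147 to 161 CPM with STM2457. In NGP the same sum was 172 to 192 CPM with DMSO and 333 to 381 CPM with STM2457, while COL1A2 stayed under 1 CPM in all groups. These markers moved with the treatment, and their part in the results below was not tested. In bulk RNA, fewer cells of a type and less RNA per cell cannot be told apart.

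Under STM2457 the enzymes fell as a group in both lines, and ALDH18A1 was the member that passed the test in neither. The 10 genes together took 0.411% to 0.461% of all counts in SK-N-BE2 with DMSO and 0.125% to 0.131% with STM2457. In NGP their share was 0.357% to 0.384% with DMSO and 0.177% to 0.186% with STM2457, and in neither line did the libraries of the treatments overlap. In SK-N-BE2, 9 of the 10 were called lower at an adjusted p under 0.05 in edgeR's quasi-likelihood test, against 27.8% of all 14013 genes tested. In NGP, 8 of 10 were called lower, against 22.2% of 13610 genes. The same members had all treated libraries below all controls, an order shown by 29.0% of the genes in SK-N-BE2 and by 26.2% in NGP. These counts of 9 and 8 were the same without any single library of the line, including NGP DMSO replicate 1, which stands apart for several of the genes. No member was called higher in either line with edgeR, and at an unadjusted p under 0.05 the number higher was also 0; DESeq2 called 9 and 8 members, all of them lower. The 8 members lower in both lines stand beside 10.8% of the 12952 genes tested in both. The 10 genes were chosen with earlier results of these data known, so these shares are not an independent test of the group. For SK-N-BE2 the median log2 fold change was -1.96 over the 10 genes and -0.02 over all genes. For NGP it was -1.18 over the 10 and -0.03 over all.

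**Figure D1:**
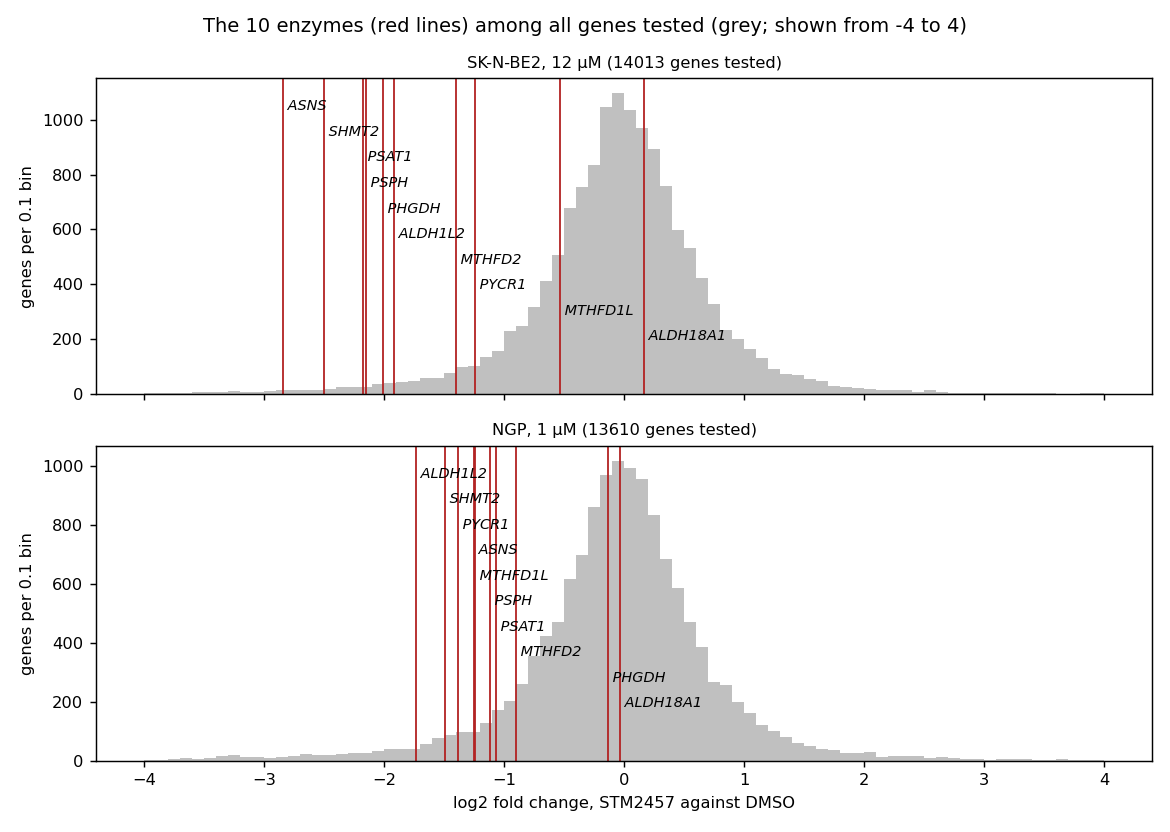
Histograms of the log2 fold change (STM2457 against DMSO) of every gene tested in SK-N-BE2 (top, 14013 genes) and NGP (bottom, 13610 genes), with a red line at each of the 10 enzymes. The y axis counts genes per bin of 0.1, and every red line but that of ALDH18A1 in SK-N-BE2 lies left of 0, with PHGDH (-0.14) and ALDH18A1 (-0.04) in NGP close to it.

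The serine-making genes fell together in SK-N-BE2, but in NGP the PHGDH libraries of the treatments overlapped. PHGDH, the dehydrogenase at the entry of the pathway (chr1:119648411-119744226, plus strand, GRCh38), was at 826, 851 and 810 CPM in the SK-N-BE2 libraries with DMSO and at 215, 208 and 211 CPM with STM2457. The treated libraries were tightly grouped and far below every control. PHGDH thus fell by 2.01 ± 0.08 (SE) on the log2 scale (edgeR adjusted p = 1.24e-09), to a 4.03-fold lower level. In NGP PHGDH was at 347, 221 and 262 CPM with DMSO and at 254, 260 and 253 CPM with STM2457. The treated libraries lay inside the range of the controls, of which replicate 1 was the highest. The log2 fold change was -0.14 ± 0.15 (95% interval -0.44 to 0.16, edgeR adjusted p = 0.506). Without NGP DMSO replicate 1 it was 0.06 (adjusted p = 0.554).

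PSAT1, the transaminase of the middle step (chr9:78297125-78330093, plus strand), was at 592, 791 and 661 CPM in SK-N-BE2 with DMSO and at 152, 161 and 152 CPM with STM2457. The NGP libraries were at 561, 554 and 607 CPM with DMSO and at 271, 286 and 279 CPM with STM2457. In both lines all treated libraries lay below all controls. The log2 fold change of PSAT1 was -2.18 ± 0.11 in SK-N-BE2 (edgeR adjusted p = 6.61e-09), and NGP showed -1.07 ± 0.09 (5.76e-05). PSPH, the phosphatase that releases serine (chr7:56011051-56051604, minus strand), was at 94.8, 128 and 109 CPM in SK-N-BE2 with DMSO and at 26.4, 25.5 and 24.8 CPM with STM2457. For NGP the values were at 89.1, 76.8 and 93.7 CPM with DMSO and at 40.9, 41.6 and 39.0 CPM with STM2457. As for PSAT1, the groups did not overlap in either line, and the values of both genes were highest in SK-N-BE2 DMSO replicate 2. PSPH fell by 2.15 ± 0.11 in SK-N-BE2 (adjusted p = 6.59e-09) and by 1.12 ± 0.11 in NGP (0.000125), close to the values of PSAT1 in each line. Reads from 4 annotated PSAT1 pseudogenes and 1 PSPH pseudogene could be confused with these genes.

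ASNS, asparagine synthetase (chr7:97851677-97872542, minus strand), fell furthest of the 10 in SK-N-BE2. Its libraries were at 647, 779 and 663 CPM with DMSO and at 93.6, 106 and 99.8 CPM with STM2457. The change of -2.84 ± 0.10 (edgeR adjusted p = 3.03e-10) is a 7.16-fold lower level and ranked 126th from the lowest among the 14013 genes tested. In NGP ASNS was at 457, 369 and 422 CPM with DMSO and at 169, 188 and 177 CPM with STM2457. These groups did not overlap either, and the change was -1.25 ± 0.11 (adjusted p = 6.68e-05), a 2.38-fold lower level. In GENCODE 44, 49.3% of the exon length of ASNS is shared with another gene on the same strand that was not counted here, and 4 ASNS pseudogenes are annotated, so part of these counts is uncertain in origin.

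Of the proline genes, PYCR1 fell in both lines and ALDH18A1 passed the test in neither. ALDH18A1, the synthase of the first committed steps (chr10:95605941-95656711, minus strand), was at 164, 182 and 153 CPM in SK-N-BE2 with DMSO and at 192, 201 and 182 CPM with STM2457. The treated libraries were all a little higher than the controls, an order without overlap that 33.2% of all genes tested showed. The change was 0.17 ± 0.09 (95% interval -0.01 to 0.34, edgeR adjusted p = 0.124). Without SK-N-BE2 DMSO replicate 2 it passed the test (0.24, adjusted p = 0.0191). In NGP ALDH18A1 was at 235, 254 and 258 CPM with DMSO and at 237, 252 and 252 CPM with STM2457. These groups overlapped, and the change was -0.04 ± 0.09 (95% interval -0.21 to 0.13, adjusted p = 0.757).

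PYCR1, the mitochondrial reductase that completes proline (chr17:81932384-81942412, minus strand), was at 375, 394 and 414 CPM in SK-N-BE2 with DMSO and at 175, 169 and 170 CPM with STM2457. In NGP it was at 506, 355 and 404 CPM with DMSO and at 160, 178 and 155 CPM with STM2457. All treated libraries lay below all controls in each line, and NGP DMSO replicate 1 was the highest. PYCR1 fell by 1.24 ± 0.08 in SK-N-BE2 (edgeR adjusted p = 6.35e-08) and by 1.38 ± 0.14 in NGP (0.000149). Of its exon length 14.1% is shared with MYADML2 on the same strand, and reads there cannot be assigned to PYCR1.

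**Figure D2:**
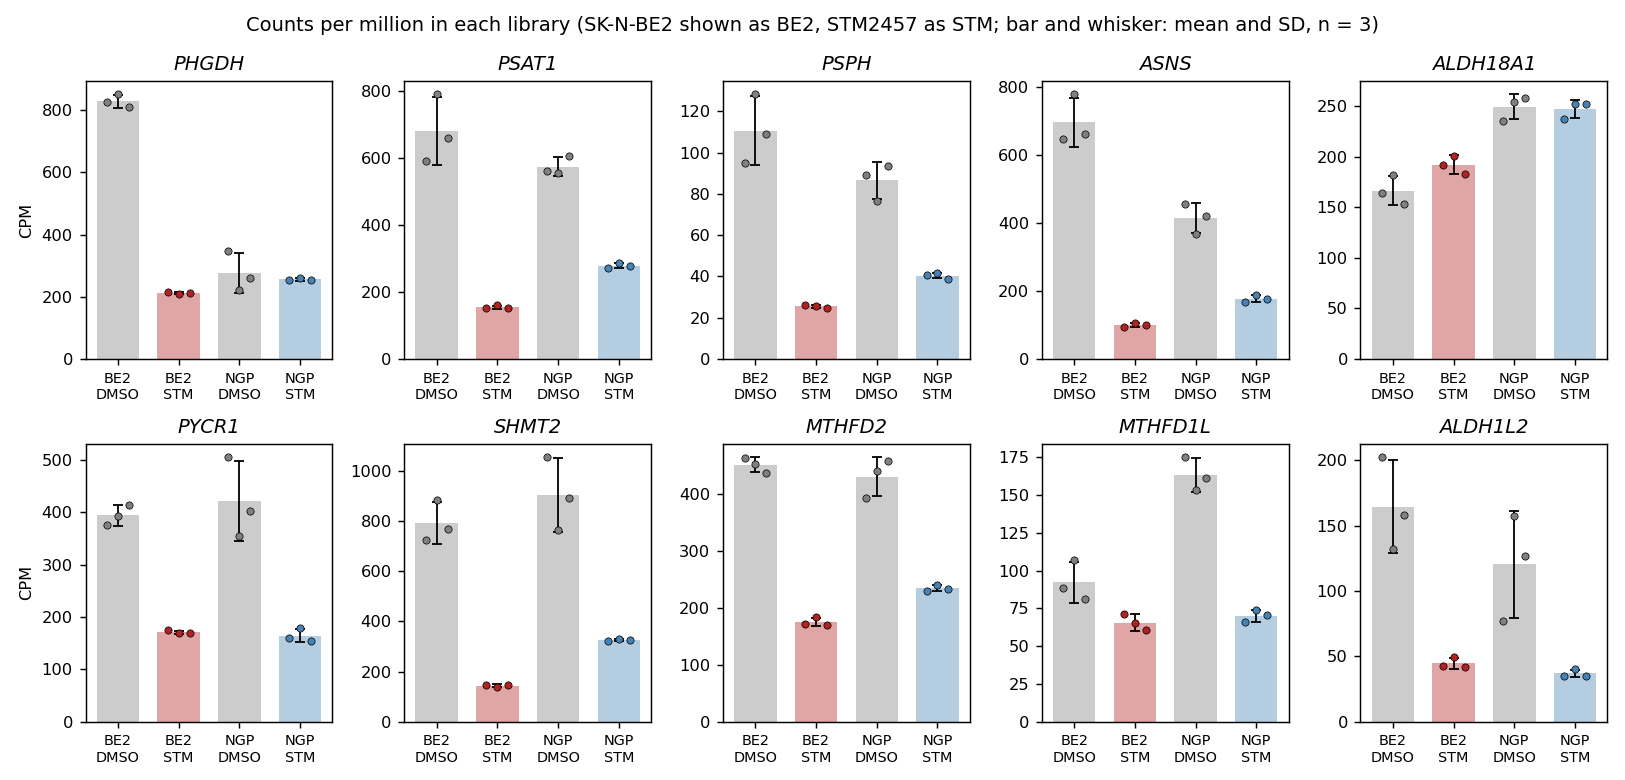
CPM of each of the 10 enzymes (one panel each, y axes from 0 and scaled separately) in SK-N-BE2 (BE2) and NGP with DMSO or STM2457 (STM); points are libraries, bars the mean and whiskers the SD of 3. PHGDH drops from a mean of 829 to 211 CPM in SK-N-BE2 and sits at 277 and 256 CPM in NGP, while ALDH18A1 is at 166 and 192 CPM in SK-N-BE2 and its groups overlap in NGP.

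The mitochondrial folate genes all fell in both lines, MTHFD1L least in SK-N-BE2. SHMT2, the serine hydroxymethyltransferase of mitochondria (chr12:57229573-57234935, plus strand), was at 725, 883 and 768 CPM in SK-N-BE2 with DMSO and at 146, 137 and 148 CPM with STM2457. In NGP it was at 1056, 765 and 892 CPM with DMSO and at 322, 331 and 328 CPM with STM2457. The treated libraries were far below the controls in each line, and the controls were spread more widely. The changes were -2.50 ± 0.10 in SK-N-BE2 (edgeR adjusted p = 8.77e-10) and -1.49 ± 0.13 in NGP (6.17e-05), levels 5.65-fold and 2.81-fold lower.

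MTHFD2, the dehydrogenase and cyclohydrolase of the mitochondrial pathway (chr2:74198610-74217565, plus strand), was at 463, 452 and 436 CPM in SK-N-BE2 with DMSO and at 171, 183 and 170 CPM with STM2457. The NGP libraries were at 392, 440 and 458 CPM with DMSO and at 230, 240 and 233 CPM with STM2457. The control levels of the lines overlapped, and the treated level was lower in SK-N-BE2. MTHFD2 fell by 1.40 ± 0.08 in SK-N-BE2 (adjusted p = 2.41e-08) and by 0.90 ± 0.10 in NGP (0.000194). Its counts are uncertain because 33.6% of its exon length lies opposite other counted genes, SLC4A5 among them, with no strand used in counting, and because it has 7 annotated pseudogenes.

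MTHFD1L, the synthetase that releases formate (chr6:150865549-151101887, plus strand), was at 88.2, 107 and 81.3 CPM in SK-N-BE2 with DMSO and at 71.2, 65.1 and 60.4 CPM with STM2457. The groups did not overlap but lay close together, and the change was -0.53 ± 0.11 (edgeR adjusted p = 0.000904). In NGP MTHFD1L was at 175, 153 and 161 CPM with DMSO and at 65.9, 74.0 and 70.6 CPM with STM2457. The NGP controls were higher than any SK-N-BE2 library, whereas the treated libraries of the lines overlapped. The change in NGP was -1.24 ± 0.10 (adjusted p = 4.56e-05).

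ALDH1L2, the mitochondrial formyltetrahydrofolate dehydrogenase (chr12:105019784-105107643, minus strand), was at 203, 133 and 158 CPM in SK-N-BE2 with DMSO and at 42.8, 49.7 and 41.6 CPM with STM2457. For NGP the values were at 77.0, 158 and 126 CPM with DMSO and at 35.3, 40.4 and 35.1 CPM with STM2457. Its control libraries were the most scattered of the 10 genes relative to their mean, with NGP DMSO replicate 1 the lowest, yet no control reached the treated range. It fell by 1.92 ± 0.13 in SK-N-BE2 (adjusted p = 1.04e-07) and by 1.73 ± 0.23 in NGP (0.00069).

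Levels of different genes were compared per length, as CPM divided by kilobases of counted exon. With DMSO the order in SK-N-BE2 was PSAT1, SHMT2, ASNS, PYCR1, MTHFD2, PHGDH, ALDH18A1, PSPH, MTHFD1L and ALDH1L2, from 309 ± 46 to 17.3 ± 3.7 CPM per kb (SD, n = 3). In that order the ranges of neighbours overlapped between SHMT2 and ASNS, ASNS and PYCR1, MTHFD2 and PHGDH, ALDH18A1 and PSPH, and MTHFD1L and ALDH1L2. In NGP with DMSO PSAT1 was again the highest at 260 ± 13 CPM per kb and ALDH1L2 the lowest at 12.7 ± 4.3. SHMT2 and PYCR1 overlapped there, as did MTHFD2 and ASNS, MTHFD1L and PSPH, and PSPH and PHGDH. PHGDH stood in 6th place in SK-N-BE2 at 89.9 ± 2.3 CPM per kb and in 9th place in NGP at 30.0 ± 7.0. These places depend on the counted exon length, 2206 bases for PSAT1, 9217 for PHGDH and 9493 for ALDH1L2. In CPM without length, PHGDH had the highest mean of these genes in SK-N-BE2 with DMSO, at 829 against 681 for PSAT1. Its libraries there overlapped those of SHMT2. ALDH1L2, at 164 CPM in that group, was above PSPH (111) and MTHFD1L (92.2).

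With STM2457 the order per kb was different. ALDH18A1 went from 7th to 3rd place in SK-N-BE2, at 51.0 ± 2.5 CPM per kb with STM2457, and from 6th to 3rd in NGP, at 65.7 ± 2.3. ASNS went from 3rd to 7th place in SK-N-BE2, at 20.4 ± 1.3 CPM per kb. With STM2457 no neighbours overlapped in SK-N-BE2, and in NGP PSPH and MTHFD1L alone did. PSAT1 stayed first, at 70.2 ± 2.3 (SK-N-BE2) or 126 ± 4 (NGP) CPM per kb, and ALDH1L2 last, at 4.71 ± 0.46 or 3.89 ± 0.32.

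**Figure D3:**
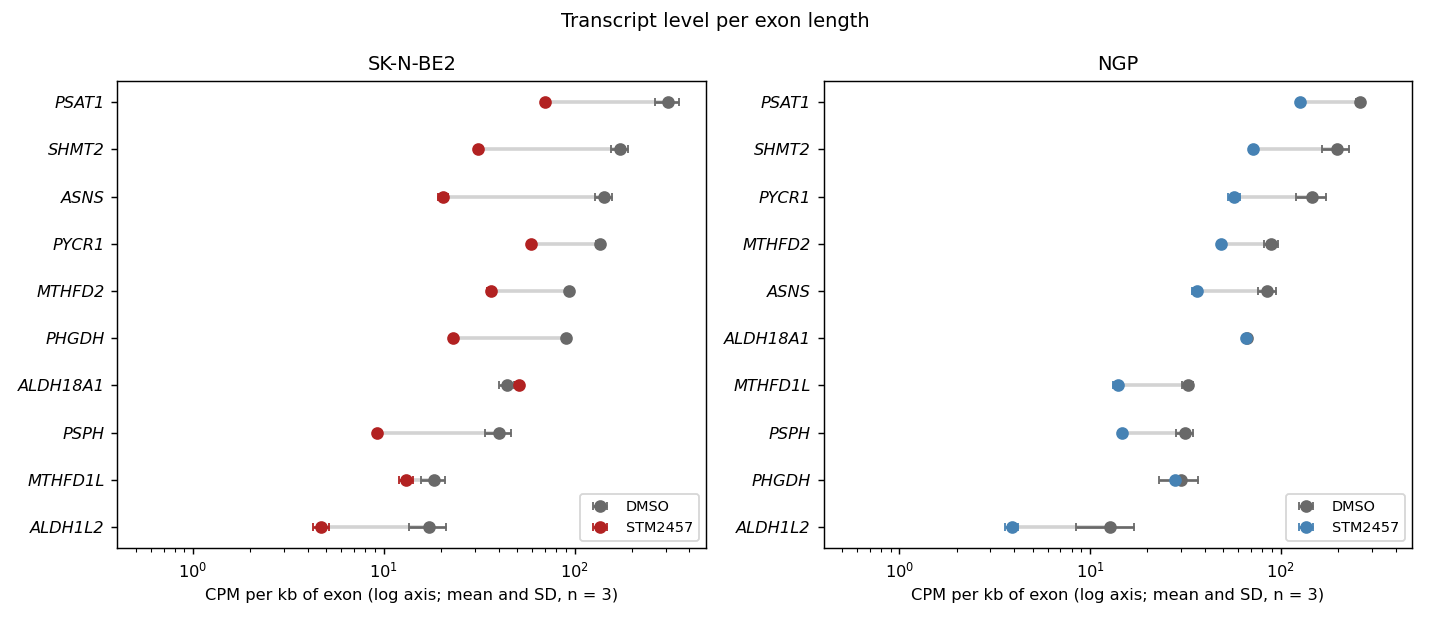
Mean CPM per kb of exon (log axis; whiskers SD, n = 3) of the 10 enzymes in SK-N-BE2 (left) and NGP (right), with DMSO in grey and STM2457 in colour, ordered by the DMSO level in that line. Per kb, PSAT1 is highest and ALDH1L2 lowest in all 4 groups. Only the ALDH18A1 points (both lines) and the PHGDH points (NGP) lie on or beside each other.

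Several of these enzymes have a relative that does the same chemistry in the cytosol or in mitochondria, and each relative described here had a less negative log2 fold change than its partner among the 10. The partners ranked from 173rd (SHMT2) to 2640th (MTHFD1L) from the lowest of 14013 genes in SK-N-BE2. In NGP they ranked from 478th (ALDH1L2) to 1403rd (MTHFD2) of 13610. Most genes tested were thus less negative too, and the differences within pairs were not tested. SHMT1, the cytosolic partner of SHMT2, rose in both lines. In SK-N-BE2 SHMT1 went from 10.2 ± 1.1 to 15.8 ± 0.4 CPM, in NGP from 31.0 ± 1.5 to 68.7 ± 2.5 CPM (SD, n = 3). Its log2 fold changes were 0.60 ± 0.11 (SE; edgeR adjusted p = 0.000516) and 1.12 ± 0.10 (7.21e-05). Per kb, SHMT2 exceeded SHMT1 by 123, 123 and 124 times in the SK-N-BE2 controls and by 14.3, 14.0 and 14.9 times with STM2457. In NGP the ratio was 51.8, 41.2 and 45.4 with DMSO and 7.59, 7.34 and 7.73 with STM2457. SHMT2 thus remained the more abundant transcript in every library, by a smaller margin in the treated ones.

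MTHFD1, the cytosolic enzyme that takes up formate, rose likewise, in SK-N-BE2 from 116 ± 12 to 215 ± 3 CPM and in NGP from 141 ± 8 to 239 ± 5 CPM (SD, n = 3). The changes were 0.85 ± 0.09 (SE; edgeR adjusted p = 3.74e-06) and 0.74 ± 0.09 (0.000364); 15.7% of its exon length lies opposite other annotated genes. Per kb, MTHFD1L exceeded MTHFD1 in every control, by 1.68 to 2.53 times in SK-N-BE2 and 2.61 to 3.12 times in NGP. It was below MTHFD1 in every treated library, at ratios of 0.692 to 0.808 and 0.686 to 0.750. For these ratios an exact permutation test of 3 libraries against 3 cannot give a two-sided p below 0.1. They also depend on the counted exon length, 5021 bases for MTHFD1L and 12208 for MTHFD1. In CPM without length, the SK-N-BE2 control mean of MTHFD1L, 92.2, was below that of MTHFD1, 116. In the NGP controls it was above, at 163 against 141 CPM.

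MTHFD2L, the second mitochondrial dehydrogenase, passed the test in neither line, at -0.20 ± 0.10 in SK-N-BE2 (edgeR adjusted p = 0.105) and 0.16 ± 0.11 in NGP (0.280). The per-kb ratio of MTHFD2 to MTHFD2L was 42.2 ± 4.0 in the SK-N-BE2 controls, 18.2 ± 0.4 in the treated libraries of that line, 47.4 ± 1.6 in the NGP controls and 22.7 ± 1.6 in the treated NGP libraries (SD, n = 3). ALDH1L1, the cytosolic partner of ALDH1L2, was near 1 CPM throughout. It fell in SK-N-BE2 from 1.68 ± 0.18 to 0.647 ± 0.081 CPM (-1.41 ± 0.28, adjusted p = 0.000757) and was at 0.946 ± 0.36 and 0.810 ± 0.242 CPM in NGP (adjusted p = 0.625).

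PYCR3, the cytosolic relative of PYCR1, passed in neither line, at -0.25 ± 0.23 (edgeR adjusted p = 0.379) and -0.35 ± 0.29 (0.364).

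**Figure D4:**
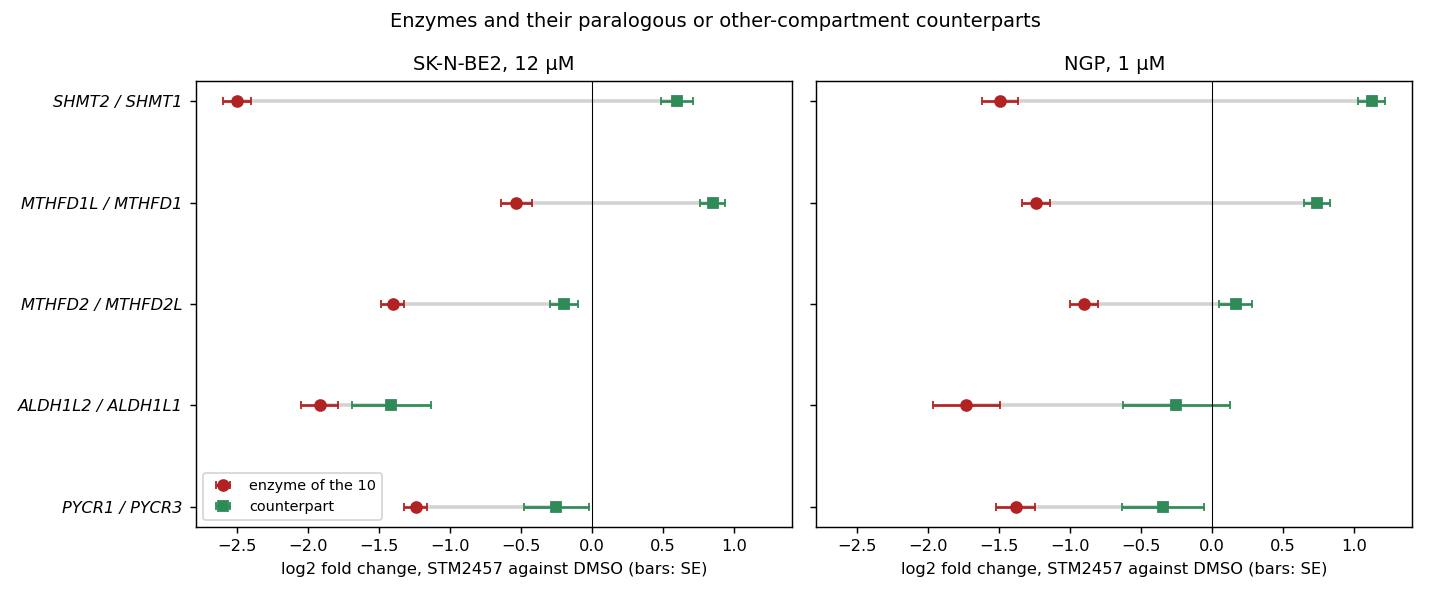
Log2 fold change (STM2457 against DMSO, whiskers SE) of 5 of the enzymes (red circles) and of their relatives (green squares), in SK-N-BE2 (left) and NGP (right). In each pair the red point lies left of the green one, and SHMT1 (0.60 on the left, 1.12 on the right) and MTHFD1 (0.85 and 0.74) lie above 0.

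The response itself was compared between the lines, SK-N-BE2 minus NGP, in a fit of all 12 libraries. Of the 10 genes, 6 were called lower, that is, fell further in SK-N-BE2, against 13.9% of 14731 genes, and 1 was called higher, against 17.0%. The median difference of the 10 was -0.74, and that of all genes 0.02. PHGDH differed most, at -1.86 ± 0.18 (SE; edgeR adjusted p = 5.01e-06), followed by ASNS at -1.58 ± 0.14 (3.78e-06). PSAT1 and PSPH, the other serine-making genes, differed by -1.10 ± 0.14 (6.02e-05) and -1.02 ± 0.16 (0.000265). SHMT2 differed by -0.99 ± 0.16 (0.000349) and MTHFD2 by -0.49 ± 0.11 (0.00515).

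MTHFD1L went the other way and fell further in NGP, by a difference of 0.72 ± 0.15 (edgeR adjusted p = 0.00271). No difference was called for ALDH1L2, at -0.18 ± 0.29 with a 95% interval of -0.75 to 0.40 (adjusted p = 0.695). For PYCR1 the difference was 0.15 ± 0.16, with an interval of -0.16 to 0.47 (adjusted p = 0.501), and for ALDH18A1 0.22 ± 0.12, with an interval of -0.02 to 0.45 (adjusted p = 0.189). These intervals leave room for differences of either sign, so they do not show equal responses. Since SK-N-BE2 received the higher dose, the difference cannot be assigned to the line.

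**Figure D5:**
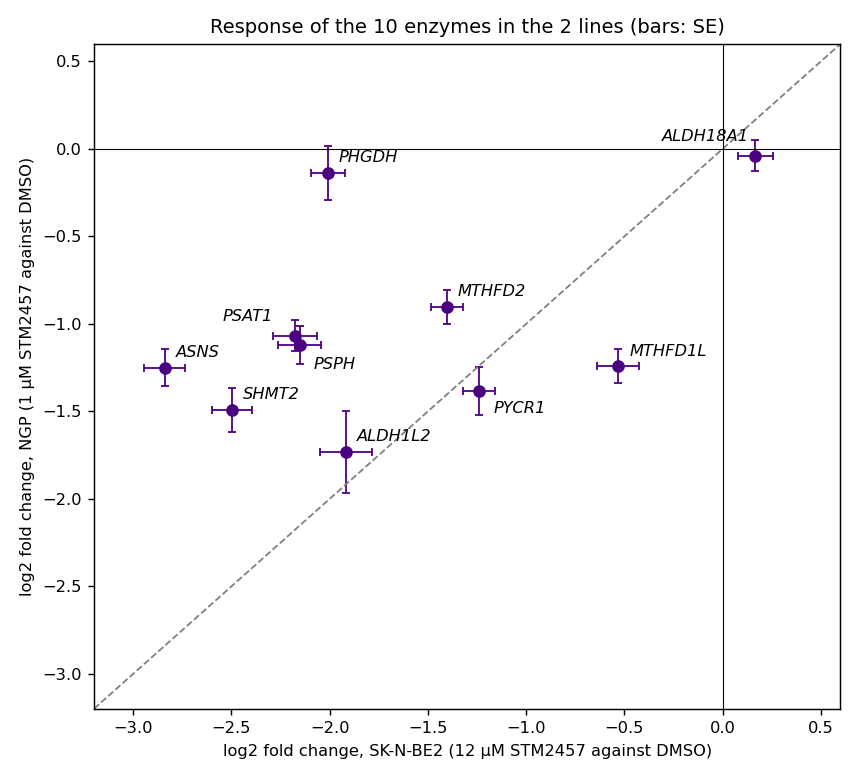
Log2 fold change under STM2457 of each of the 10 enzymes in SK-N-BE2 (x axis, 12 µM) and NGP (y axis, 1 µM), with SE bars and a dashed line of equal change. PHGDH lies at -2.01 and -0.14, ASNS at -2.84 and -1.25, and MTHFD1L, at -0.53 and -1.24, is on the other side of the line.

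In the control cells the lines differed for 6 of the 10 genes. With SK-N-BE2 compared with NGP, 4 were called higher, against 35.7% of the 14731 genes tested, and 2 lower, against 35.4%, so the share called was near that of all genes. PHGDH was 3.0-fold higher in SK-N-BE2 (log2 1.58 ± 0.13, edgeR adjusted p = 4.67e-08), with means of 829 ± 21 and 277 ± 64 CPM (SD, n = 3). ASNS was 1.67-fold higher (0.74 ± 0.10, adjusted p = 1.36e-05). The groups of both genes did not overlap, which 35.0% of genes showed in this direction. PSPH was higher by 0.36 ± 0.11 (adjusted p = 0.00965) and PSAT1 by 0.25 ± 0.10 (0.0373), the latter with overlapping libraries and not called without SK-N-BE2 DMSO replicate 2 (0.132) or NGP DMSO replicate 2 (0.0808).

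Lower in the SK-N-BE2 controls were MTHFD1L, with a log2 difference of -0.82 ± 0.11 (edgeR adjusted p = 9.24e-06), and ALDH18A1, with -0.58 ± 0.09 (2.58e-05). SHMT2 was at -0.19 ± 0.11 (adjusted p = 0.139), MTHFD2 at 0.07 ± 0.08 (0.466), ALDH1L2 at 0.45 ± 0.21 (0.0639) and PYCR1 at -0.10 ± 0.11 (0.451). SHMT2 passed the test without NGP DMSO replicate 2 (-0.29, adjusted p = 0.0227), and ALDH1L2 passed it without the same library (0.70, 0.00544), without SK-N-BE2 DMSO replicate 2 (0.60, 0.0293), with DESeq2 (0.47, 0.0417) and with a replicate block (0.49, 0.0365). The DMSO libraries used here are the controls of both responses, so the control levels and the response differences share them.

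With STM2457 the PHGDH levels of the lines came near each other, at 211 ± 4 CPM in SK-N-BE2 and 256 ± 4 CPM in NGP (SD, n = 3). PYCR1 was at 171 ± 3 and 165 ± 12 CPM, MTHFD1L at 65.6 ± 5.5 and 70.2 ± 4.1 CPM, and ALDH1L2 at 44.7 ± 4.4 and 37.0 ± 3.0 CPM. SHMT2, whose libraries overlapped between the lines with DMSO, was at 144 ± 6 CPM in SK-N-BE2 and 327 ± 4 CPM in NGP with STM2457. ASNS and PSAT1 had the higher mean in SK-N-BE2 with DMSO and the lower mean there with STM2457, at 99.8 ± 6.2 against 178 ± 10 CPM for ASNS and 155 ± 5 against 279 ± 8 CPM for PSAT1. Between the lines the treated libraries overlapped for PYCR1 and MTHFD1L and for no other member, PHGDH and ALDH1L2 included. The share of all genes without such overlap was not counted, and the difference between the treated groups was not tested.

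The wider pathway did not move in a single direction. Of 46 neighbouring genes of folate, serine and glycine, proline, and asparagine and aspartate metabolism, 43 were tested in each line. In SK-N-BE2 16 were called higher and 12 lower, against 26.9% and 27.8% of all genes, and in NGP 9 higher and 10 lower, against 19.4% and 22.2%. These neighbours had a median change of -0.06 (SK-N-BE2) and -0.08 (NGP) on the log2 scale. Without NGP STM2457 replicate 3 the NGP count was 12 in all.

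By branch, 7 of 16 folate neighbours rose and 2 fell in SK-N-BE2, and 5 rose and 2 fell in NGP. Here rose and fell stand for called higher and called lower. Among all genes tested, the SK-N-BE2 shares were 26.9% higher and 27.8% lower. The NGP shares were 19.4% higher and 22.2% lower. No branch was tested against these shares, and each holds few genes, so the counts describe the branches only. Among the folate neighbours that rose in both lines were SHMT1, MTHFD1, TYMS (thymidylate synthase) and GGH (gamma-glutamyl hydrolase). Of 13 serine and glycine neighbours tested, 4 rose and 4 fell in SK-N-BE2, and 2 rose and 3 fell in NGP. Of 7 proline neighbours, 2 rose and 3 fell in SK-N-BE2, and 1 rose and 3 fell in NGP. Of 7 asparagine and aspartate neighbours tested, 3 rose and 3 fell in SK-N-BE2, and 1 rose and 2 fell in NGP.

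Among these neighbours the deepest falls with at least 10 CPM were of ASS1, P4HA2 and CTH in SK-N-BE2 and of P4HA2, GOT1 and CTH in NGP. ASS1, argininosuccinate synthetase, which uses aspartate, was at 1097 ± 70 CPM with DMSO against 150 ± 7 with STM2457 in SK-N-BE2, and at 1502 ± 232 against 759 ± 34 CPM in NGP (SD, n = 3). Its counts are uncertain, since 14 ASS1 pseudogenes are annotated. The changes of ASS1 were -2.91 ± 0.10 (SE; edgeR adjusted p = 1.02e-10) and -1.01 ± 0.13 (0.000446) beside -2.84 and -1.25 for ASNS. P4HA2, a prolyl hydroxylase subunit of collagen processing, changed by -1.89 ± 0.13 (1.31e-07) and -2.70 ± 0.16 (1.06e-05). CTH, which makes cysteine from cystathionine, changed by -1.69 ± 0.11 (7.43e-08) and -1.21 ± 0.13 (0.000204). GOT1, the cytosolic aspartate aminotransferase, changed by -1.35 ± 0.16 (1.5e-05) and -1.60 ± 0.11 (2.42e-05).

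The ATF4 transcript itself fell in both lines. With DMSO it was at 1214 ± 130 CPM in SK-N-BE2 and at 564 ± 139 CPM in NGP, and with STM2457 at 330 ± 8 and 334 ± 10 CPM (SD, n = 3). Its changes were -1.92 ± 0.10 (SE, edgeR adjusted p = 8.79e-09) and -0.78 ± 0.16 (0.00506). The ATF4 response differed by -1.12 ± 0.19 (0.000666), the direction seen for PHGDH, ASNS, PSAT1, PSPH, SHMT2 and MTHFD2. MTHFD1L differed in the opposite direction (0.72 ± 0.15, edgeR adjusted p = 0.00271). No difference was called for ALDH1L2, PYCR1 and ALDH18A1. NGP DMSO replicate 1 was the highest NGP library for ATF4, as for PHGDH, SHMT2, ASNS, MTHFD1L and PYCR1. It was the lowest of the 3 NGP controls for ALDH1L2, MTHFD2 and ALDH18A1. MYCN was at 4434 ± 337 (DMSO) and 4265 ± 25 (STM2457) CPM in SK-N-BE2, with 3970 ± 285 and 4043 ± 397 CPM for NGP. The MYCN libraries of the treatments overlapped in both lines. Whether either factor plays a part in the levels of the enzymes was not tested.

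For each gene, log2 CPM in each of the 12 libraries was taken relative to the DMSO mean of its line, and its root mean square difference from the mean profile of the 10 enzymes was the measure of likeness. Among the 10, MTHFD2 was nearest to their own mean, at 0.156, and ALDH18A1 farthest, at 1.04. Of 8702 other genes with at least 10 CPM in both control groups, HAX1 was the nearest at 0.108, followed by SARS1 at 0.132, CTH at 0.140, LRRC8D at 0.150 and CARS1 at 0.157. SARS1 and CARS1 charge the tRNAs of serine and cysteine. All 5 were called lower in both lines, beside 10.8% of the 12952 genes tested in both. They were picked for nearness to a profile that fell in both lines, so these calls follow from the choice. The log2 fold changes in SK-N-BE2 were -1.53 for HAX1, -1.56 for SARS1 and -1.76 for CARS1. The points of each profile share line and treatment, so the distances describe these libraries and were not tested.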

How the data were processed

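Groups follow the line and treatment in the sample titles. Poly(A) selection and a SMART cDNA kit gave the libraries, per the labels' protocols. The submitters' processing notes name FastQC 0.11.5, Trimmomatic 0.36, HISAT2 2.1.0, Subread 1.5.3 and GRCh38. featureCounts 2.0.5 counted reads by gene name, per the file headers, over exons of GENCODE 33 protein-coding genes, with no strand option. The values the authors deposited are counts, not normalized. Of the counts from 1 to 20, 72.1% to 75.4% were even, so mates of a pair were often both counted and counting intervals would be too narrow.

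Each line was fitted alone with edgeR 4.0.16 in R 4.3.3 (filterByExpr, TMM, quasi-likelihood test, Benjamini-Hochberg over all genes, threshold 0.05). The response difference and the DMSO comparison were contrasts over all 12 libraries. SE is the log2 fold change over the root of F, and intervals are 1.96 SE to each side. With few libraries this multiplier makes the 95% intervals too narrow. For MTHFD2L in SK-N-BE2 the interval, -0.391 to -0.005, excluded 0 although the edgeR unadjusted p was 0.0651. CPM is on the TMM scale of the 12 libraries, without spike-ins, so changes are relative. The median of all genes moved by at most 0.03. Alternatives were DESeq2 1.42.0, its size factors in edgeR, other filters, halved counts, a joint fit, a replicate block, a fold minimum and leaving out each library. Steps were tested on simulated data. The 10 genes and the lists were chosen with earlier results of these data known. Named always were the 10, their relatives, ATF4, MYCN and METTL3. Of the neighbours, the 3 with the deepest called change per line at 10 CPM or more were named, and for likeness the 5 nearest genes. A few genes named by the rule are not reported here. Positions are those of the deposited files, exon sharing is from GENCODE 44, and promoters are from RefSeq.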

Additional observations from a re-analysis of the deposited data

Results flagged for a closer look

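The response to STM2457 differed between the lines, by a test of the difference itself (SK-N-BE2 minus NGP, log2 scale, edgeR over 12 libraries), for 7 of the 10 enzymes. The difference was -1.58 for ASNS, -1.86 for PHGDH, -1.10 for PSAT1, -1.02 for PSPH, -0.99 for SHMT2, -0.49 for MTHFD2 and 0.72 for MTHFD1L. It was also called for SHMT1 (-0.51, edgeR adjusted p = 0.0107), which rose less in SK-N-BE2, and for ASS1 (-1.88) and ATF4 (-1.12), which fell further there. P4HA2 fell further in NGP (0.82, adjusted p = 0.00935). CTH, which fell further in SK-N-BE2 (-0.47, adjusted p = 0.0433), and METTL3, which rose less there (-0.39, 0.0279), were near the threshold, and their calls were lost in 10 and 9 of 18 other fits. Dose and run differ with the line, and their part in these differences cannot be told apart from it.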

How the results depend on the processing

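The number of enzymes called lower stayed at 8 or more in SK-N-BE2 and at 7 or more in NGP in every variation run, and the response differences of the 7 enzymes called kept sign and call in all 18. With a log2 change of 1 or more in size also required, 4 enzymes were called for the response difference and 1 for the DMSO comparison. The same minimum left 7 neighbouring genes for SK-N-BE2 and 8 for NGP. Over all genes it left 1808 of 7665 calls (SK-N-BE2), 1903 of 5671 (NGP), 1930 of 4549 (response difference) and 5574 of 10480 (DMSO comparison). Leaving out 1 library at a time gave 12 to 23 neighbouring genes in NGP, the lowest without NGP STM2457 replicate 3. Values that changed sign were never called. Over all the other fits, PHGDH in NGP ranged from -0.28 to 0.056 and ALDH1L1 in NGP from -0.48 to 0.10. The response difference ranged from -0.42 to 0.049 for ALDH1L2 and from -0.014 to 0.26 for PYCR1. PYCR1 in the DMSO comparison ranged from -0.20 to 0.078. The sign changed without NGP DMSO replicate 1, for ALDH1L1 without replicate 3. With a replicate block 9, 8, 7 and 7 enzymes were called in the 4 comparisons. Same-numbered libraries showed little common deviation (correlations -0.0771, 0.0774 and 0.0141 in SK-N-BE2, 0.00408, -0.115 and 0.0227 in NGP). With 3 libraries per group this cannot show whether the numbers pair them. Depth does not limit the enzymes, but ALDH1L1 near 1 CPM is less precise.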
